A study of Mus musculus with 7 samples.

Results

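Zinc finger genes numbered Zfp700 to Zfp999 were examined in sorted long-term haematopoietic stem cells (LT-HSCs) of mice with and without Emcn, the gene of the cell-surface sialomucin endomucin. The members were chosen by symbol and by level, which had to reach a mean of at least 1 CPM, a count scaled by the library total, over the 7 libraries. Of the 128 entries with such a symbol, 113 met this level, out of 54347 genes in the deposited table. Zfp760 was also selected on its higher values in the Emcn knockout, so its own difference is described here without a test. Whether the other members followed it is the question of the comparison.

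All mice were female, and WT and KO mice alike belong to a C57BL/6N strain labelled with the Emcn allele em1(IMPC)Wtsi /WtsiH. The allele lies in the germline, so every tissue of a knockout mouse carries it. The 4 WT libraries (wt_284, wt_290, wt_310 and wt_312) came from Emcn+/+ mice and the 3 KO libraries (ko_306, ko_314 and ko_320) from Emcn-/- littermates, with 1 mouse for each library. The sources used here do not give age, litter or the exons that the allele removes. Bone marrow was depleted of lineage-positive cells and sorted by flow cytometry before a stranded total RNA library for small inputs was made.

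Most of these genes encode proteins in which a KRAB domain is followed by a row of C2H2 zinc fingers, each finger a short fold held by a zinc ion that reads a few bases of DNA. The KRAB domain binds TRIM28, which brings the histone methyltransferase SETDB1 and HP1 proteins and so leads to methylation of lysine 9 of histone H3 and to silencing, above all of transposable elements. KRAB zinc finger genes lie in clusters that arose by repeated duplication, so that neighbours often share long stretches of sequence. Trim28 and Setdb1 are both known to be needed for the upkeep of mouse blood stem cells.

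Of the 113 members, 90 held the letter pattern of a KRAB A-box in their translated coding sequence (GENCODE M21, GRCm38), and in 23 it was not found. The KRAB members had a median of 11 C2H2 fingers (range 0 to 23) and the other members a median of 6 (range 0 to 20). Of those without the pattern, the pseudogenes Zfp783 and Zfp939 had no coding sequence to translate. Zfp935 is annotated as protein coding, but its coding sequence was not read, because its name in GENCODE M21 does not start with Zfp. It was therefore not searched, and it is counted among the 23 with 0 fingers. The members lay on 16 chromosomes, 81 of them in 21 runs of neighbours whose starts were within 500 kb of each other, and 32 stood alone.

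Promoter sequences from RefSeq (GRCm38.p6) were found for 99 members, in 117 windows that reach from 250 bases before to 50 bases after the start of a gene. 4 of them are shown because they belong to members of the same run on chromosome 17, around Zfp760, whose log2 fold changes between KO and WT had different signs. Capitals mark any of 6 searched motifs on either strand, of which the ETS core CCGGAA, the GC box GGGCGG and the E-box CACGTG are present here. Zfp760 lies at chr17:21707491-21707790 (+ strand), Zfp820 at chr17:21845710-21846009 (- strand), Zfp946 at chr17:22423952-22424251 (+ strand) and Zfp983 at chr17:21650361-21650660 (+ strand), each given for the window and written 5′ to 3′.
Zfp760: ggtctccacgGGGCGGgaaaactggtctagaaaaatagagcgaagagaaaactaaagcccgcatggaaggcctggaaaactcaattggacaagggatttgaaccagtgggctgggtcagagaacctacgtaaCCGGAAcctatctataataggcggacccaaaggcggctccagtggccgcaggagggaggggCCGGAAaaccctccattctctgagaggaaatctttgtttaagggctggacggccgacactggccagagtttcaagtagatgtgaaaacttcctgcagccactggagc
Zfp820: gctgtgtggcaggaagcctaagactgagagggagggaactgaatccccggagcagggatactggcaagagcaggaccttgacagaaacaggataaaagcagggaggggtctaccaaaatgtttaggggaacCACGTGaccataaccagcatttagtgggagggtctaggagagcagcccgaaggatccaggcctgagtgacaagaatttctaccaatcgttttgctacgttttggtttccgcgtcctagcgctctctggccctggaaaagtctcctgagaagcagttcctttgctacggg
Zfp946: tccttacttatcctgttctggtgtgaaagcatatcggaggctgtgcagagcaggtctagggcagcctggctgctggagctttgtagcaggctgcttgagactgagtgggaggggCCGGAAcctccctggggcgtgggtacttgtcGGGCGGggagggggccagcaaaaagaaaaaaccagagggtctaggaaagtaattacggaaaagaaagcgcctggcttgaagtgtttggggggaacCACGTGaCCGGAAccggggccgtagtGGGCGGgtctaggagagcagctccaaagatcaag
Zfp983: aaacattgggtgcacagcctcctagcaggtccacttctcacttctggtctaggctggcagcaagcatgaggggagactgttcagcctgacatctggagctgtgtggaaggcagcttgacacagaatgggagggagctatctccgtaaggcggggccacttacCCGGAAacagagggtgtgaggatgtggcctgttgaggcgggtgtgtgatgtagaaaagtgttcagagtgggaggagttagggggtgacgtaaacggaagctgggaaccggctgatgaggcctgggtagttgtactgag

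The ETS core, the letters bound by ETS family factors, was found in the windows of Zfp760, Zfp946 and Zfp983 and not in that of Zfp820. Over all member windows, 35.9% held the ETS core, against 14.9% of all 32851 windows in the table. The GC box, which SP and KLF factors bind, was in 41.9% of member windows and 35.7% of all windows. The TATA box, searched as TATAAA, was in 5.13% against 13.6%, and the E-box in 11.1% against 7.15%. The RUNX core TGTGGT was in 17.1% against 16.8% and the GATA core AGATAA in 8.55% against 11.2%. Each motif was searched on both strands, and none of the motifs contains another. The members are related by duplication, so their windows are not independent of each other. A match is a description of letters and not a measured binding site.

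The libraries held 6444134 to 11101774 counts. Emcn had 130 to 327 counts in the WT libraries and at most 1 count in a KO library, which matches the genotype labels. Defining LT-HSC markers were present in every library, with 10 of 10 tested and a summed level of 1381 to 2279 CPM in WT and 1927 to 2211 CPM in KO. The library wt_284 thus had the lowest LT-HSC sum, and it also stood apart by its other blood cell transcripts. Its 12 myeloid markers summed to 8605 CPM, while the other WT libraries held 212 to 918 CPM and the KO libraries 184 to 433 CPM, and all 12 had negative log2 fold changes (KO minus WT). Its 8 erythroid markers summed to 1382 CPM, while the other WT libraries held 157 to 364 CPM and the KO libraries 90.1 to 158 CPM, again with all 8 negative. The 4 mast cell and basophil markers, also all negative, ranged from 8.86 to 86.3 CPM in WT and from 0 to 7.92 CPM in KO. The lymphoid sum was 3.21 to 65.5 CPM in WT and 1.53 to 5.22 CPM in KO. Cd3e had 21, 1, 6 and 0 counts in wt_284, wt_290, wt_310 and wt_312 and 0 in each KO library. The megakaryocyte sum (54.5 to 129 CPM in WT, 87.6 to 122 CPM in KO) and the endothelial sum (122 to 156 CPM in WT, 139 to 151 CPM in KO) overlapped. Cdh5 was near the floor throughout, with 1, 8, 0 and 0 counts in wt_284, wt_290, wt_310 and wt_312 and 0 in each KO library. Above every KO library lay also wt_290 and wt_310, with myeloid sums of 840 and 918 CPM and erythroid sums of 279 and 364 CPM. Their mast cell and basophil sums were 28.2 and 31.6 CPM. The myeloid and erythroid sums of wt_312 lay within the KO range. The part of these other cells in the results was not tested. Results are given with and without wt_284, but leaving it out does not remove this difference between the groups. In bulk RNA, fewer cells of a type and less RNA per cell cannot be told apart.

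The members were expressed at low to moderate levels. Per kb of exon, which allows levels of different genes to be compared, the median member stood at 4.42 CPM. The highest level per kb was that of Zfp982, 36.5 ± 10.4 CPM per kb (SD, n = 7 libraries), followed by Zfp869 at 32.2 ± 6.08 and Zfp991 at 30.5 ± 4.46. Zfp984 stood at 26.4 ± 8.67 CPM per kb, and Zfp706, a small protein without a KRAB pattern, at 19.6 ± 1.72. Neighbours among the first 4 of these differed by less than their SDs. The lowest were Zfp786 at 0.470 ± 0.343 CPM per kb, Zfp968 at 0.576 ± 0.627 and Zfp775 at 0.594 ± 0.355, which also lay within each other's SD. Transcripts of other genes hold 75.9%, 40.9% and 92.3% of the 75-base windows of Zfp991, Zfp984 and Zfp968. The levels of these genes are therefore uncertain. Zfp760 stood at 8.69 ± 2.44 CPM per kb, above the median of the members. On the raw CPM scale of the member rule, the first 3 above its threshold were Zfp977 at 1.66, Zfp968 at 1.75 and Zfp786 at 2.54 CPM, and the nearest below were Zfp811 at 0.976, Zfp853 at 0.536 and Zfp936 at 0.535 CPM. All 113 members passed the filter on low counts and were tested.

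The KO and WT libraries were compared with edgeR's quasi-likelihood test over 15372 genes. No member passed the threshold of 0.05 after Benjamini-Hochberg adjustment, and the smallest adjusted p of a member was 0.992. Over all genes, the same edgeR test called 0% higher and 0.00651% lower, the latter being Emcn itself. Of the 112 members other than Zfp760, 5 had an unadjusted p under 0.05 with higher values in KO, where the share over all genes was 1.28%, and 1 with lower values, where it was 1.99%. The 5 were Zfp820, Zfp935, Zfp960, Zfp966 and Zfp987, and the 1 was Zfp703. Zfp960 reached the member level of 1 CPM only through its KO libraries, so its place here was favoured by the choice of members. Of these 5, Zfp820 shared 0.226% of its 75-base windows with transcripts of other genes, while Zfp935, Zfp960, Zfp966 and Zfp987 shared 57.5%, 75.3%, 85.1% and 81.7%, so that their single values are uncertain. DESeq2 called 0 members, against 0% of all genes higher and 0.0651% lower.

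Positive log2 fold changes outnumbered negative ones. Of the 113 members, 79 had a positive log2 fold change (KO minus WT) and 34 a negative one, where 47.6% of all genes tested were positive. The median log2 fold change of the members was 0.18, against -0.02 over all genes. Leaving out Zfp760 gave 78 positive and 34 negative values with the same median of 0.18. The positive values include Zfp960, Zfp968 and Zfp977, which reached the member level only through their KO libraries. Without wt_284, 70 members were positive and 43 negative, with a median of 0.11, where 50.1% of all genes were positive with a median of 0.00. Without wt_312 the median of the members was 0.29.

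The KRAB members carried most of the positive values. With the KRAB pattern, 71 log2 fold changes were positive and 19 negative (median 0.21), and without wt_284 these numbers were 62 and 28 (median 0.15). Zfp935, which was not searched and had a positive value, is counted among the 23 members without the pattern. Of these 23, 8 were positive and 15 negative (median -0.07), and without wt_284 again 8 and 15 (median -0.13). This balance rested on single KO libraries, since it was 14 and 9 (median 0.025) without ko_314 and 12 and 11 (median 0.0048) without ko_320. The KRAB members had 72 and 18 (median 0.23) and 61 and 29 (median 0.17) without these libraries. Zfp genes with numbers below 700 and a mean of at least 1 CPM gave 139 positive and 81 negative values (median 0.08), and without wt_284 they gave 123 and 97 (median 0.04). The differences between these groups were not tested.

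**Figure D1:**
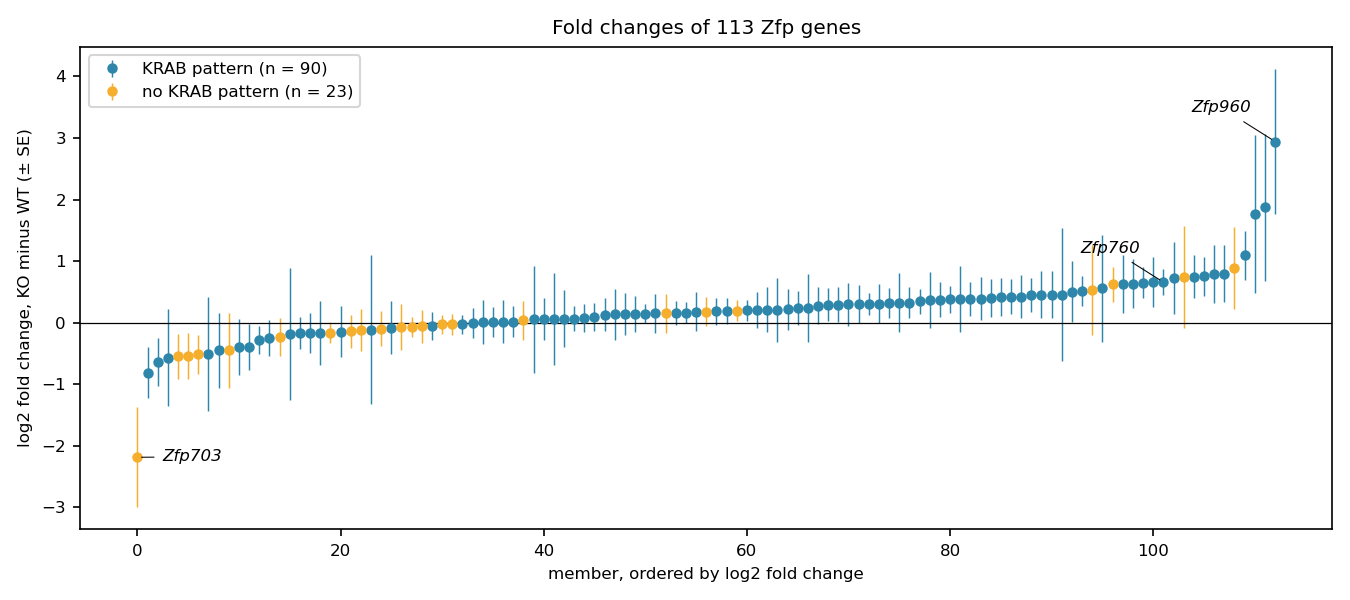
Log2 fold change (KO minus WT, y axis) with its standard error for the 113 members, ordered from the lowest to the highest along the x axis and coloured by whether the translated sequence held a KRAB pattern (90 with, 23 without). Zfp935, which was not searched, is coloured as without. The members with the pattern hold 71 of the 79 positive values, and Zfp703 and Zfp960 form the ends at -2.19 and 2.94.

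The level of the members also differed between libraries of the same genotype. Summed over the members, the level was 2424, 2796, 2974 and 3203 CPM in wt_284, wt_290, wt_310 and wt_312 and 3063, 3116 and 3329 CPM in ko_306, ko_314 and ko_320. The groups overlapped, since wt_312 lay above ko_306 and ko_314, and wt_284 was the lowest. WT libraries had a mean sum of 2849 ± 329 CPM (SD, n = 4) and KO libraries one of 3169 ± 141 CPM (SD, n = 3), or 0.283% ± 0.0455 and 0.320% ± 0.00484 of all counts. For each gene the log2 CPM of a library was then set against the gene's own mean over the 7 libraries. The median of this deviation over the members was -0.31, -0.03, 0.02 and 0.09 in wt_284, wt_290, wt_310 and wt_312 and 0.05, 0.09 and 0.20 in ko_306, ko_314 and ko_320, while over all genes it lay between 0.00 and 0.02. wt_284 was the library with the lowest value for 39 members, or 34.5%, against 18.0% of all genes. ko_320 held the highest value for 33 members, or 29.2%, against 17.4% of all genes. For wt_312 this was 26 members, or 23.0%, close to the 19.1% of all genes. In wt_284 it was 5 members, or 4.42%, against 23.1% of all genes. The KRAB members had the wider span of medians, from -0.36 in wt_284 to 0.24 in ko_320, and the members without the pattern ran from -0.19 in wt_284 to 0.12 in wt_312.

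**Figure D2:**
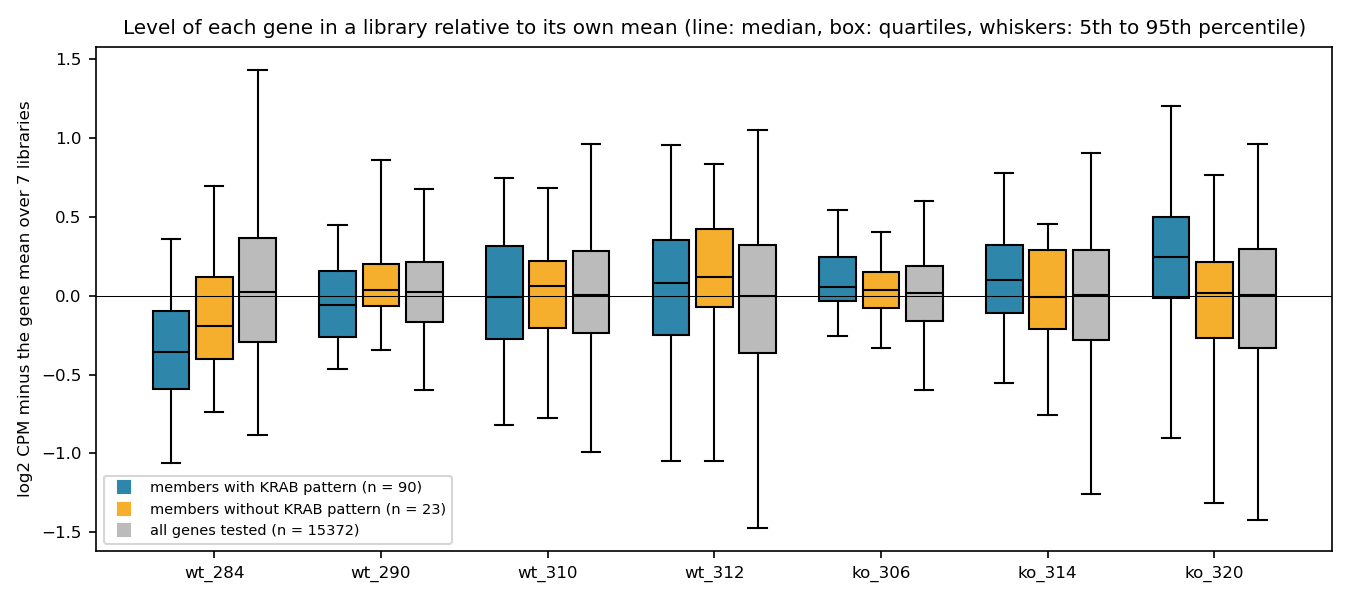
Deviation of log2 CPM from each gene's own mean (y axis) in each of the 7 libraries (x axis), for members with a KRAB pattern (n = 90), members in which it was not found (n = 23) and all 15372 genes tested, as median, quartiles and the range from the 5th to the 95th percentile. The KRAB members lie lowest in wt_284 (median -0.36) and highest in ko_320 (median 0.24), while the medians over all genes stay between 0.00 and 0.02.

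In Zfp760 and 5 other members every KO library lay above every WT library. The 5 were Zfp866, Zfp935, Zfp946, Zfp952 and Zfp960, and 2.43% of all genes did so. Zfp960 reached the member level only through its KO libraries, so the choice of members favoured its place here. In 2 members, Zfp703 and Zfp983, every KO library lay below every WT library, where the share of all genes was also 2.43%. Without wt_284 these counts, Zfp760 included, were 7 and 4, where the shares of all genes were 3.82% and 3.50%. With RLE factors in place of TMM factors, Zfp866 and Zfp952 overlapped, and with upper-quartile factors Zfp866 and Zfp983 did.

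Zfp760 (ENSMUSG00000067928.6, chr17:21707741-21725636, + strand, GRCm38) encodes a KRAB protein with 16 fingers by the patterns searched. Its level was 26.1, 28.9, 29.2 and 33.0 CPM in wt_284, wt_290, wt_310 and wt_312, from at least 191 counts, and 40.5, 43.4 and 54.9 CPM in ko_306, ko_314 and ko_320, from 291 to 470 counts. The KO libraries were all above the WT libraries, with ko_320 the highest. The WT mean was 29.3 ± 2.85 CPM (SD, n = 4) and the KO mean 46.3 ± 7.62 CPM (SD, n = 3), a log2 fold change of 0.66 ± 0.21 (SE) or 1.58-fold. This difference chose the gene and has no test. It was 0.61 without wt_284, 0.53 without ko_320 and 0.74 without wt_312. None of its 75-base windows occurred in a transcript of another gene.

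**Figure D3:**
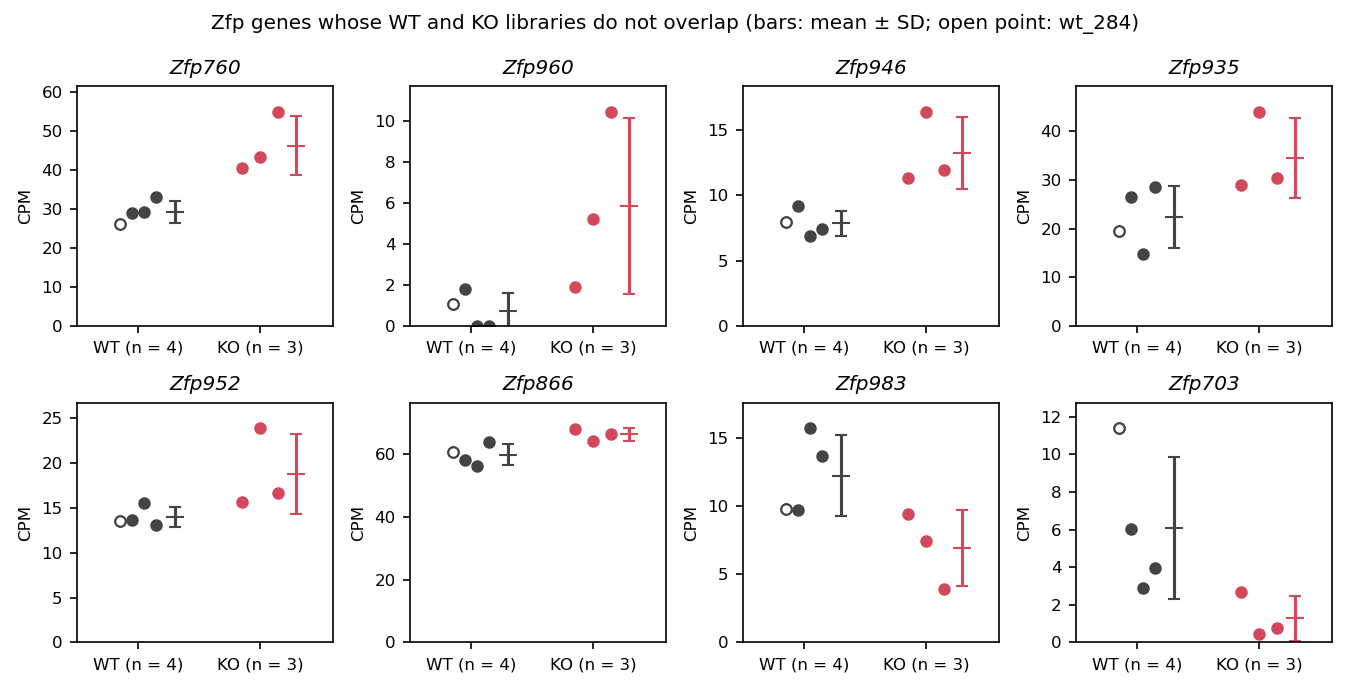
CPM (y axis, from 0, with its own scale for each gene) of the 8 members whose WT (n = 4, grey) and KO (n = 3, red) libraries did not overlap, with mean and SD as bars and wt_284 as an open point. Zfp760 stands between 26.1 and 33.0 CPM in WT and between 40.5 and 54.9 CPM in KO, and Zfp703 and Zfp983 are the 2 members with lower KO values.

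Zfp946, a KRAB member with 11 fingers in the same run, stood at 8.0, 9.16, 6.88 and 7.45 CPM in the WT libraries, in the order used above, and at 11.4, 16.4 and 12 CPM in the KO libraries. Its log2 fold change was 0.75 ± 0.35 (SE), and 0.76 without wt_284. Its KO values were all above WT, with ko_314 the highest. Zfp952 on chromosome 17, with 9 fingers, stood at 13.6, 13.7, 15.6 and 13.1 CPM in WT and 15.7, 23.9 and 16.7 CPM in KO (log2 fold change 0.42 ± 0.28, SE). Its groups almost touched, between wt_310 and ko_306. Zfp866 on chromosome 8, with 12 fingers, stood at 60.7, 58.2, 56.2 and 63.8 CPM in WT and 68.0, 64.1 and 66.5 CPM in KO (log2 fold change 0.15 ± 0.16, SE). It had the smallest coefficient of variation (CV, the SD over the 7 libraries divided by their mean) of all members, 6.91%, and its groups were also close together, between wt_312 and ko_314. None of these 3 genes passed, with an adjusted p of 0.992 in edgeR for each.

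Zfp935 and Zfp960 share much of their sequence with other genes. The gene listed as Zfp935 (ENSMUSG00000113450.1, named Gm49359 in GENCODE M21) stood at 19.5, 26.5, 14.8 and 28.5 CPM in WT and 29.0, 44.0 and 30.4 CPM in KO (log2 fold change 0.62 ± 0.28, SE), with wt_312 and ko_306 close to each other. It shared 57.3% of its windows with another gene of the symbol Zfp935, which had 0 counts in each library. Zfp960 stood at 1.09, 1.79, 0 and 0 CPM in WT and at 1.89, 5.22 and 10.4 CPM in KO, from 0 to 19 counts in WT and 22 to 82 counts in KO (log2 fold change 2.94 ± 1.18, SE). wt_290 and ko_306 were nearly level. On the raw CPM scale, the 2 counts of 0 allow up to 0.466 CPM in wt_310 and 0.390 CPM in wt_312. Zfp960 shared 74.7% of its windows with Zfp97. The sum of Zfp960 and Zfp97 ran from 8.60 to 18.0 CPM in WT and from 10.9 to 22.6 CPM in KO, so that its groups overlapped. In edgeR, the adjusted p of Zfp935 and of Zfp960 was 0.992.

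The members with lower KO values differ in kind. Zfp703 (chr8:26977325-26981461), a transcriptional corepressor without a KRAB domain, stood at 11.4, 6.04, 2.90 and 3.98 CPM in WT and 2.67, 0.447 and 0.764 CPM in KO. wt_284 was the highest, and wt_310 lay next to ko_306. Its log2 fold change was -2.19 ± 0.81 (SE, edgeR adjusted p 0.992), and -1.69 without wt_284. Zfp703 overlaps the opposite-strand gene Gm45371, and the sources used here do not say whether reads were assigned by strand. Zfp983 (chr17:21650624-21664966), a KRAB member with 10 fingers whose start lies just before Zfp760 on chromosome 17, stood at 9.82, 9.73, 15.7 and 13.7 CPM in WT and 9.47, 7.46 and 3.95 CPM in KO. wt_290 and ko_306 were nearly level, and ko_320 was the lowest. Its log2 fold change was -0.81 ± 0.41 (SE, edgeR adjusted p 0.992), and -0.90 without wt_284.

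Among the other members at the ends of the range, the groups overlapped. Zfp987, a KRAB member on chromosome 4, stood at 8.24, 13.0, 7.64 and 4.88 CPM in WT and 11, 18.8 and 24.6 CPM in KO (log2 fold change 1.09 ± 0.40, SE). It shared 81.7% of its windows, and the sum with 5 genes that each held at least 20% of them ran from 12.7 to 23.5 CPM in WT and 22.9 to 41.4 CPM in KO. Here wt_290 lay above ko_306, as it did for Zfp987 alone. Zfp711, an X-linked gene whose protein works with the histone demethylase PHF8, stood at 2.42, 2.64, 4.43 and 1.28 CPM in WT and 3.53, 4.18 and 7.26 CPM in KO (0.89 ± 0.66, SE, on the log2 scale). Zfp968 and Zfp977 had log2 fold changes of 1.76 ± 1.28 (SE) and 1.88 ± 1.19 (SE) from low counts, at most 20 in a WT library and 51 in a KO library. Both reached the member level only through their KO libraries. At the other end, Zfp747 stood at 8.0, 13.4, 17.1 and 24.5 CPM in WT and 9.64, 9.10 and 11.5 CPM in KO (log2 fold change -0.64 ± 0.39, SE), where wt_284 was the lowest of all. Zfp972 and Zfp956 had log2 fold changes of -0.57 ± 0.78 (SE) and -0.55 ± 0.36 (SE). The edgeR adjusted p was 0.992 for each of these genes.

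The 5 members with the highest level per kb did not pass either. Zfp984 stood at 67.5, 70.3, 79.3 and 42.2 CPM in WT and 72.2, 79.3 and 126 CPM in KO (log2 fold change 0.51 ± 0.25, SE). Zfp982 stood at 24.6, 52.0, 48.9 and 66.5 CPM in WT and 53.2, 65.2 and 70.2 CPM in KO (0.39 ± 0.28, SE, on the log2 scale). In Zfp984 it was wt_312 that was the lowest, and in Zfp982 wt_284. Zfp991, Zfp706 and Zfp869 had log2 fold changes of 0.20 ± 0.17, -0.03 ± 0.15 and -0.05 ± 0.22 (SE). The values of Zfp984 and Zfp991 are uncertain, since they shared 40.9% and 75.9% of their 75-base windows with other genes. Zfp809, a KRAB protein that silences retroviral DNA, is named here for that role after its values were seen. It stood at 41.0, 40.2, 41.3 and 70.0 CPM in WT and 50.5, 50.1 and 53.0 CPM in KO (log2 fold change 0.09 ± 0.22, SE). Its WT values were nearly alike apart from wt_312, which lay above the KO libraries.

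By position, the run of 13 members around Zfp760 (chromosome 17, 21567008 to 22867134) held 12 members beside it, with 10 positive and 2 negative log2 fold changes and a median of 0.28. Without wt_284 there were 9 and 3, with a median of 0.14. The run of 7 on chromosome 4 (147132038 to 147848366) had 6 positive and 1 negative (median 0.29, and 0.17 without wt_284), and the run of 6 on chromosome 13 (67038596 to 67687071) had 6 positive and 0 negative (median 0.17, and 0.09 without wt_284). The run of 6 on chromosome 8 had 5 positive and 1 negative (median 0.22), and the second run on chromosome 17, of 5, had 3 positive and 2 negative (median 0.02). In the run of 5 on chromosome 6 (47819266 to 48086593), 1 was positive and 4 negative (median -0.17, and -0.22 without wt_284). In the run of 4 on chromosome 7 (127244274 to 127406822), 1 was positive and 3 negative (median -0.42, and -0.33 without wt_284). The run of 4 on chromosome 2 had 3 positive and 1 negative (median 0.11). The runs thus differed in direction, and no member of any run passed. The runs on chromosomes 6 and 7 hold members without the KRAB pattern, Zfp783 and Zfp956 in the first and Zfp771 and Zfp768 in the second. Zfp786, in the run on chromosome 6, turned in sign when single libraries were left out. Differences between the runs were not tested.

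Around Zfp760 itself, 28 tested genes started within 1 Mb, and 19 of them were Zfp genes, Zfp760 included. Of the 18 others, members or not, 15 had a positive log2 fold change and 3 a negative one (median 0.28). Without wt_284, 13 were positive and 5 negative (median 0.17). The negative ones were Zfp983, Zfp943 at -0.28 and Zfp53 at -0.01. Of the 9 other genes in the window, 5 were positive and 4 negative (median 0.26). Zfp820, whose promoter is shown above and which lies next to Zfp760 among the members, stood at 15.9, 26.2, 24.9 and 43.0 CPM in WT and 34.6, 43.1 and 61.4 CPM in KO. Its groups overlapped, since wt_312 lay above ko_306, and its log2 fold change was 0.75 ± 0.32 (SE, edgeR adjusted p 0.992), and 0.57 without wt_284. Zfp758 stood at 37.2, 34.3, 49.8 and 47.9 CPM in WT and 48.1, 50.4 and 62.7 CPM in KO (log2 fold change 0.35 ± 0.20, SE), with wt_310 above ko_306. The other members of this window had log2 fold changes of 0.56 ± 0.87 (Zfp995), 0.33 ± 0.48 (Zfp948), 0.24 ± 0.55 (Zfp947), 0.20 ± 0.29 (Zfp944), 0.19 ± 0.21 (Zfp942) and 0.13 ± 0.27 (Zfp994), each below its standard error. Of the Zfp genes below 700 in the window, Zfp677 was at 0.65 ± 0.30 (SE), Zfp160 at 0.39 ± 0.22, Zfp52 at 0.36 ± 0.23, Zfp229 at 0.36 ± 0.33, Zfp51 at 0.24 ± 0.33 and Zfp54 at 0.05 ± 0.60. The signs of Zfp51, Zfp53, Zfp54, Zfp948, Zfp994 and Zfp995 turned under at least 1 other setting.

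**Figure D4:**
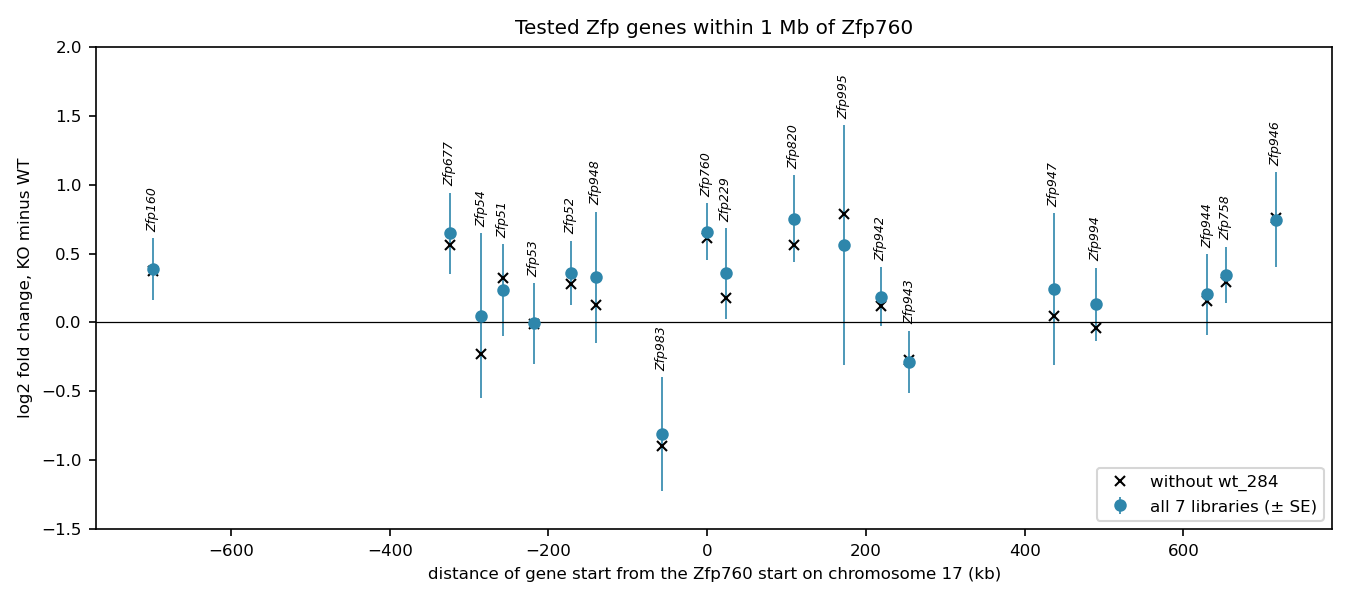
Log2 fold change (KO minus WT, y axis) with its standard error for the 19 tested Zfp genes whose starts lie within 1 Mb of the start of Zfp760, against the distance in kb (x axis), with crosses for the value without wt_284. Beside Zfp760 itself, 15 of the 18 others are above 0, and Zfp983 next to Zfp760 is the lowest at -0.81.

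The spread between libraries was widest in members with the most shared sequence. A 75-base window was counted as shared where transcripts of another gene hold it too (GENCODE M21). Among the 57 members with under 1% of shared windows, the median CV over the 7 libraries was 26.1%. The median CV was 27.5% for the 25 members with 1% to under 10%, 33.0% for the 20 with 10% to under 50% and 49.4% for the 11 with 50% or more. Among members with a mean of at least 10 CPM alone, these medians were 23.3%, 22.5%, 29.0% and 39.6%. Among members below 10 CPM they were 52.3%, 52.8%, 46.7% and 67.5%, so that the class with 10% to under 50% was there the lowest. Zfp977, with 0.296% of shared windows and few counts, had the widest spread of all members, 134%. The difference between the classes was not tested.

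Some members were at 0 in single libraries in which a near-copy was high. Zfp708, a KRAB protein that acts on retroelement DNA, had 0 counts in wt_312 and 80 to 142 counts in the other libraries. Its near-copy Gm28557, which holds 94.1% of its windows, had 185 counts in wt_312 and 1 count in ko_320. The CV was 45.8% for Zfp708 alone and 21.8% for the sum of both. Zfp973 had 0 counts in ko_320 and 28 to 148 counts elsewhere. Its CV was 67.5% alone and 30.0% for the sum with 4 genes that each held at least 20% of its windows. For Zfp968 the CV was 109% alone and 28.1% for the sum of 9 genes chosen in the same way, itself included. A sum of several genes can have a lower CV than 1 low gene even where they share no reads. The lower CVs of these sums are therefore no test of shared reads. Among the genes summed with Zfp973 and Zfp968, Gm14288 had 0 counts in wt_284, wt_310 and wt_312, where Gm14440 had 78, 283 and 287. Gm14440 had 0 counts in wt_290, ko_306 and ko_320, where Gm14288 had 218, 354 and 231. The windows that Gm14288 and Gm14440 share with each other were not counted. How reads of shared windows were divided between genes was not tested, so values of single members with many such windows are uncertain. Counts of 0 also occurred with few or no shared windows, in Zfp786 (0% shared, 0 counts in wt_312 and 12 to 40 elsewhere) and in Zfp977 (0.296% shared, 0 counts in wt_310 and 3 to 51 elsewhere). Of the 82 members with under 10% of shared windows, 57 log2 fold changes were positive and 25 negative (median 0.16), and without wt_284 these were 50 and 32 (median 0.084). Of the 31 with at least 10%, 22 were positive and 9 negative (median 0.21), and without wt_284 these were 20 and 11 (median 0.17). Of the 11 with at least 50%, 9 were positive and 2 negative (median 0.50), and without wt_284 these were 8 and 3 (median 0.56). In all, 31 of the 113 members overlap a gene on the opposite strand.

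**Figure D5:**
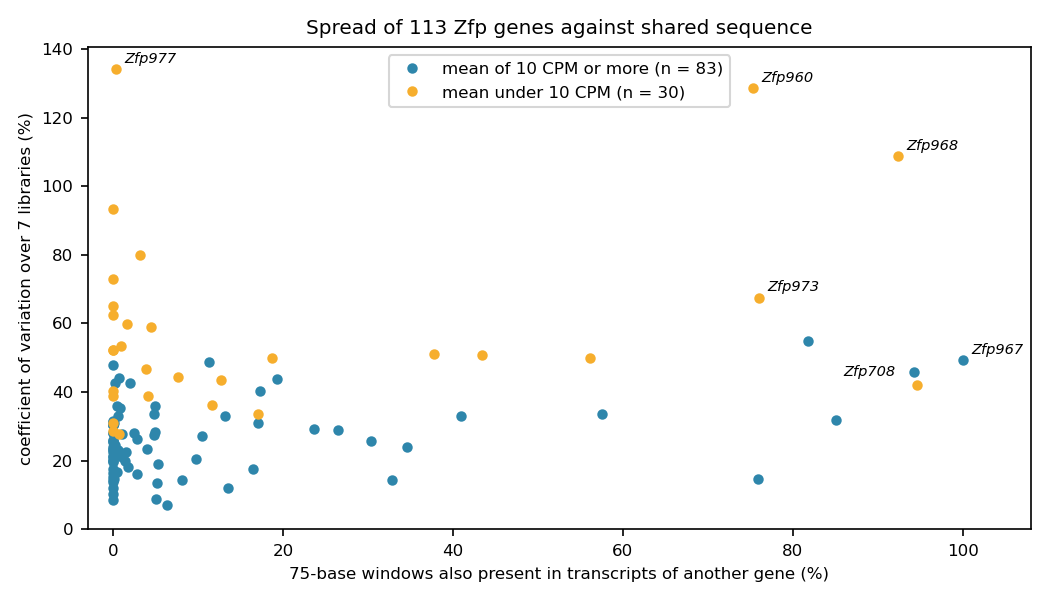
Coefficient of variation over the 7 libraries (percent, y axis) against the percent of a member's 75-base windows that transcripts of another gene also hold (x axis), for 83 members with a mean of at least 10 CPM and 30 below it. Members with 50% or more of shared windows have a median of 49.4%, and those with under 1% a median of 26.1%.

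The partners through which KRAB zinc finger proteins act showed no call. Of 42 listed genes of this pathway, 39 were tested, and 0 passed in edgeR, where the shares over all genes were 0% higher and 0.00651% lower. An edgeR unadjusted p under 0.05 was found for 0, against 1.28% of all genes higher and 1.99% lower. Groups that did not overlap were found for 0, where the shares over all genes were 2.43% in each direction. DESeq2 also called 0, against 0% of all genes higher and 0.0651% lower, so that 0 calls are close to the shares over all genes. The listed genes Atf7ip2 and Trim66 did not pass the filter on low counts. Atf7ip2, a relative of the Setdb1 partner Atf7ip, had 3, 2, 0 and 0 counts in WT and 9, 31 and 26 counts in KO, so that every KO library lay above every WT library. With no filter its edgeR adjusted p was 0.388. It is named after its values were seen. Their log2 fold changes were 21 positive and 18 negative, from -0.37 to 0.34, with a median of 0.00. Trim28, the corepressor bound by the KRAB domain, stood at 241, 259, 162 and 177 CPM in WT and 223, 173 and 171 CPM in KO (log2 fold change -0.15 ± 0.19, SE). Setdb1, the histone methyltransferase that Trim28 recruits, stood at 72.0, 65.3, 57.9 and 49.1 CPM in WT and 67.1, 66.1 and 65.8 CPM in KO (0.12 ± 0.18, SE, on the log2 scale). Both genes overlapped between the groups. By role, the 15 genes of the corepressor core had 7 positive and 8 negative values (median -0.01), and 13 genes of histone and DNA methylation had 7 and 6 (median 0.04). The 6 genes of the HUSH silencing complex and its partners had 5 positive and 1 negative (median 0.22), with Tasor, a core subunit, at 0.26 ± 0.16 (SE) and Pphln1, another subunit, at 0.31 ± 0.20 (SE). Mbd2, a reader of methylated DNA, had a log2 fold change of -0.34 ± 0.25 (SE), with wt_284 at 188 CPM and the other libraries between 84.2 and 105 CPM, and without wt_284 it was at -0.026. Zfp568, a KRAB protein numbered below 700 that represses a placental transcript of Igf2, was at -0.37 ± 0.26 (SE). The other listed KRAB proteins outside the range, Zfp57 and Zfp445, which act at imprinted genes, were at 0.34 ± 0.51 (SE) and -0.0048 ± 0.14 (SE).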

How the data were processed

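Per the submitters' processing notes, reads were handled with cutadapt and Salmon, and the table deposited by the authors gives each gene an estimated count, a whole number that is not scaled. The sources used here do not give the build, the annotation or the assignment by strand. The 7 columns matched samples by name, and 0 were unused. Counts were fitted by the robust quasi-likelihood test of edgeR 4.0.16 (R 4.3.3), after filterByExpr and with TMM factors, Benjamini-Hochberg adjustment and a threshold of 0.05, over 4 WT and 3 KO libraries, with no pairing. The fit was tested on simulated data, where it missed most changes of 1.5-fold and 2-fold. The share of false calls there was above the threshold of 0.05. CPM are scaled with the TMM factors, and deviations use log2 with 0.5 CPM added. A limit for a count of 0 is 3 counts over the library total, without the TMM factor, and covers counting error only. Positions and exon lengths come from GENCODE M21. Identical gene IDs joined the tables, except that promoters were matched by symbol.

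The members, lists and tests were chosen with earlier results of these data known. Genes were named by rule: Zfp760, members whose groups do not overlap, the 5 highest and 5 lowest fold changes, the 5 highest and 3 lowest levels per kb, the 3 on each side of the member threshold, Zfp genes within 1 Mb of Zfp760, and 6 of the pathway list. Zfp809, Zfp966, Atf7ip2, Trim66, Zfp57, Zfp445 and members with counts of 0 or near-copies were named after their values were seen. Alternatives were RLE and upper-quartile factors, no filter, at least 1 CPM in 3 libraries, DESeq2 1.42.0, a member level of 2 CPM, and leaving out each library.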

Additional observations from a re-analysis of the deposited data

Results flagged for a closer look

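In 55 groups of 4 WT libraries, the gap of the highest or lowest library to its nearest neighbour was set against the range of the group, and 5 groups exceeded the 95% limit of 0.829. Chance alone marks about 1 in 20 groups. In Zfp51, wt_312 was low at 11.2 CPM, where the other WT libraries lay between 21.4 and 22.7 CPM. In Mbd2, wt_284 was high at 188 CPM, where the others lay between 87.6 and 105 CPM. The other marked values also belong to wt_284, with a myeloid marker sum of 8605 CPM against 212 to 918 CPM, an erythroid sum of 1382 CPM against 157 to 364 CPM and a lymphoid sum of 65.5 CPM against 3.21 to 9.02 CPM.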

How the results depend on the processing

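In every alternative run, 0 members were called, and 0 of the 41 genes of the pathway list with any count, as far as each fit held them. Over all genes, 1 was called as reported, 10 with DESeq2, 81 with no filter on low counts, and 1 to 3 when 1 library was left out. The number of members with a positive log2 fold change ran from 70 (without wt_284) to 86 (without ko_314), and their median from 0.11 (without wt_284) to 0.29 (without wt_312). Members with every KO library above WT numbered 11, 13, 14 and 19, Zfp760 included, without ko_306, wt_310, ko_314 and wt_312, where the shares of all genes were 7.51%, 4.50%, 5.18% and 6.39%. They numbered 8 without wt_290 (4.22%) and 9 without ko_320 (5.28%). With RLE factors and with DESeq2 they numbered 4, where the share of all genes was not counted. Those with every KO library below WT numbered 1 without ko_314, without ko_320 and with upper-quartile factors, where the shares were 4.19%, 4.09% and 2.04%, 4 without wt_284 (3.50%) and 7 without ko_306 (9.15%). Leaving out a library means that fewer values have to be ordered, and the scaling factors are computed anew.

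Of 515 comparisons for 43 named genes other than Zfp760, 497 kept their sign and 18 turned in sign, for 9 genes with small fold changes or few counts. With upper-quartile factors the log2 fold change was 0.00072 for Zfp706 and 0.024 for Zfp53, and with 1 CPM in 3 libraries it was 0.0068 for Zfp53. With 1 library left out, values ran from -0.089 to 0.042 for Zfp706, -0.19 to 0.085 for Zfp869, -0.58 to 0.59 for Zfp786, -0.53 to 0.48 for Zfp54, -0.091 to 0.42 for Zfp51, -0.15 to 0.24 for Zfp53, -0.048 to 0.59 for Zfp948, -0.62 to 1.05 for Zfp995 and -0.042 to 0.28 for Zfp994. The cause was not tested. The choice of members by a KRAB pattern was added after seeing the data, in place of a search in RefSeq proteins that was not run. No paired analysis was possible because the mouse numbers are unique and the groups share none.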
